A study of Sus scrofa and Rattus norvegicus with 8 samples.

Results

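The nuclear genes for the subunits of the oxidative phosphorylation complexes were examined in upper-layer backfat, a subcutaneous white fat depot, of 6 pigs. The members were all gene IDs of the pig table whose symbol had the form used for a subunit of complexes I to V (NDUF, SDH, UQCR, COX4 to COX8 and ATP5 names). There were 61 such genes among 14844 named nuclear genes and 25880 IDs in all, with 27 in complex I, 4 in complex II, 6 in complex III, 13 in complex IV and 11 in complex V. NDUFA4, named after complex I, was placed with complex IV, where the protein is now known to sit. All 6 pigs were adult Bama females of 2 years, with 1 RNA-seq library for each animal and no treatment, genotype or feeding contrast. Replicates were thus separate animals of 1 condition, and no comparison between groups could be made. The series also holds 2 pools of rat inguinal fat, whose IDs carry no symbols in the tables used here, so they were not analysed here.

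Oxidative phosphorylation takes electrons from NADH through complex I and from succinate through complex II, passes them by ubiquinone, complex III and cytochrome c to oxygen at complex IV, and uses the proton gradient built on the way to make ATP at complex V. Complex II is made by nuclear genes alone, whereas the other complexes join nuclear subunits with a few made by the mitochondrial genome. White fat has few mitochondria compared with muscle or brown fat, and several complex IV subunits exist as a form used in most tissues and a form known from heart and skeletal muscle.

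Values are TPM, a length-corrected abundance relative to all transcripts of a library, and the deposited table keeps no read counts, so depth and counting error are unknown and the error given is the spread between pigs. As deposited, named nuclear genes held 24.1 to 26.3% of the TPM in replicates 1, 2, 3 and 6 but 3.34% in replicate 4 and 4.73% in replicate 5. Each library was therefore scaled so that its named nuclear genes sum to 1000000, called rescaled TPM below. After this the median of the named nuclear genes with a mean of at least 1 rescaled TPM was still lower in replicates 4 and 5. Its ratio to that of the other 4 libraries was -0.59 on the log2 scale. A member's level in replicates 4 and 5 should be read against that shift. Replicates 4 and 5 are libraries that stand apart in RNA composition and are no group of the study, so values are given with and without them. Adipocyte markers were high in all 6 libraries, with 10370 to 28926 rescaled TPM for the fatty acid carrier FABP4 and 2437 to 3746 for the hormone ADIPOQ. The summed level of the 5 adipocyte markers was 24954 and 34024 in replicates 4 and 5 and 15861 to 30568 in the others, most of it FABP4. The lipid droplet gene PLIN1 was below in both, at 1351 and 1247 against 1506 to 2137, though not after median-centring, and CIDEC above in both, at 892 and 856 against 391 to 647.

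The rule did not reach every subunit. Of 85 nuclear subunits and tissue forms in a textbook list, 63 had an ID with a symbol in the table and 61 were members. NDUFAB1 and CYC1 were named but have symbols outside the rule, and 22 had no named ID, among them ATP5F1B of the catalytic head of complex V, COX6B1 and COX6C of complex IV and UQCRB of complex III. The members lay on 18 chromosomes, with 11 on chromosome 2 and 8 on chromosome 6. None had values equal to those of another ID in every library, but subunit genes are known for processed pseudogenes, and how reads divided between a gene and such copies is uncertain.

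Nearly all members were transcribed, and many were abundant. At over 0.1 TPM as deposited, 60 of the 61 members were found in all 6 libraries, against a background of 67.2% of named nuclear genes. The exception was COX6B2, the testis form of a complex IV subunit, at 0, 0, 0.312, 0.168, 0 and 0.37 rescaled TPM in replicates 1 to 6. By mean rescaled TPM, 26 of 61 members were in the top 10% of named nuclear genes with a mean of at least 1 (background 10%). The 61 genes together held 0.962%, 0.869%, 1.03%, 1.44%, 2.02% and 0.898% of the named nuclear TPM in replicates 1 to 6. The mean share was 1.20% ± 0.451 (SD, n = 6), or 0.939% ± 0.0704 (SD, n = 4) without replicates 4 and 5, and these 2 libraries had the highest shares.

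**Figure D1:**
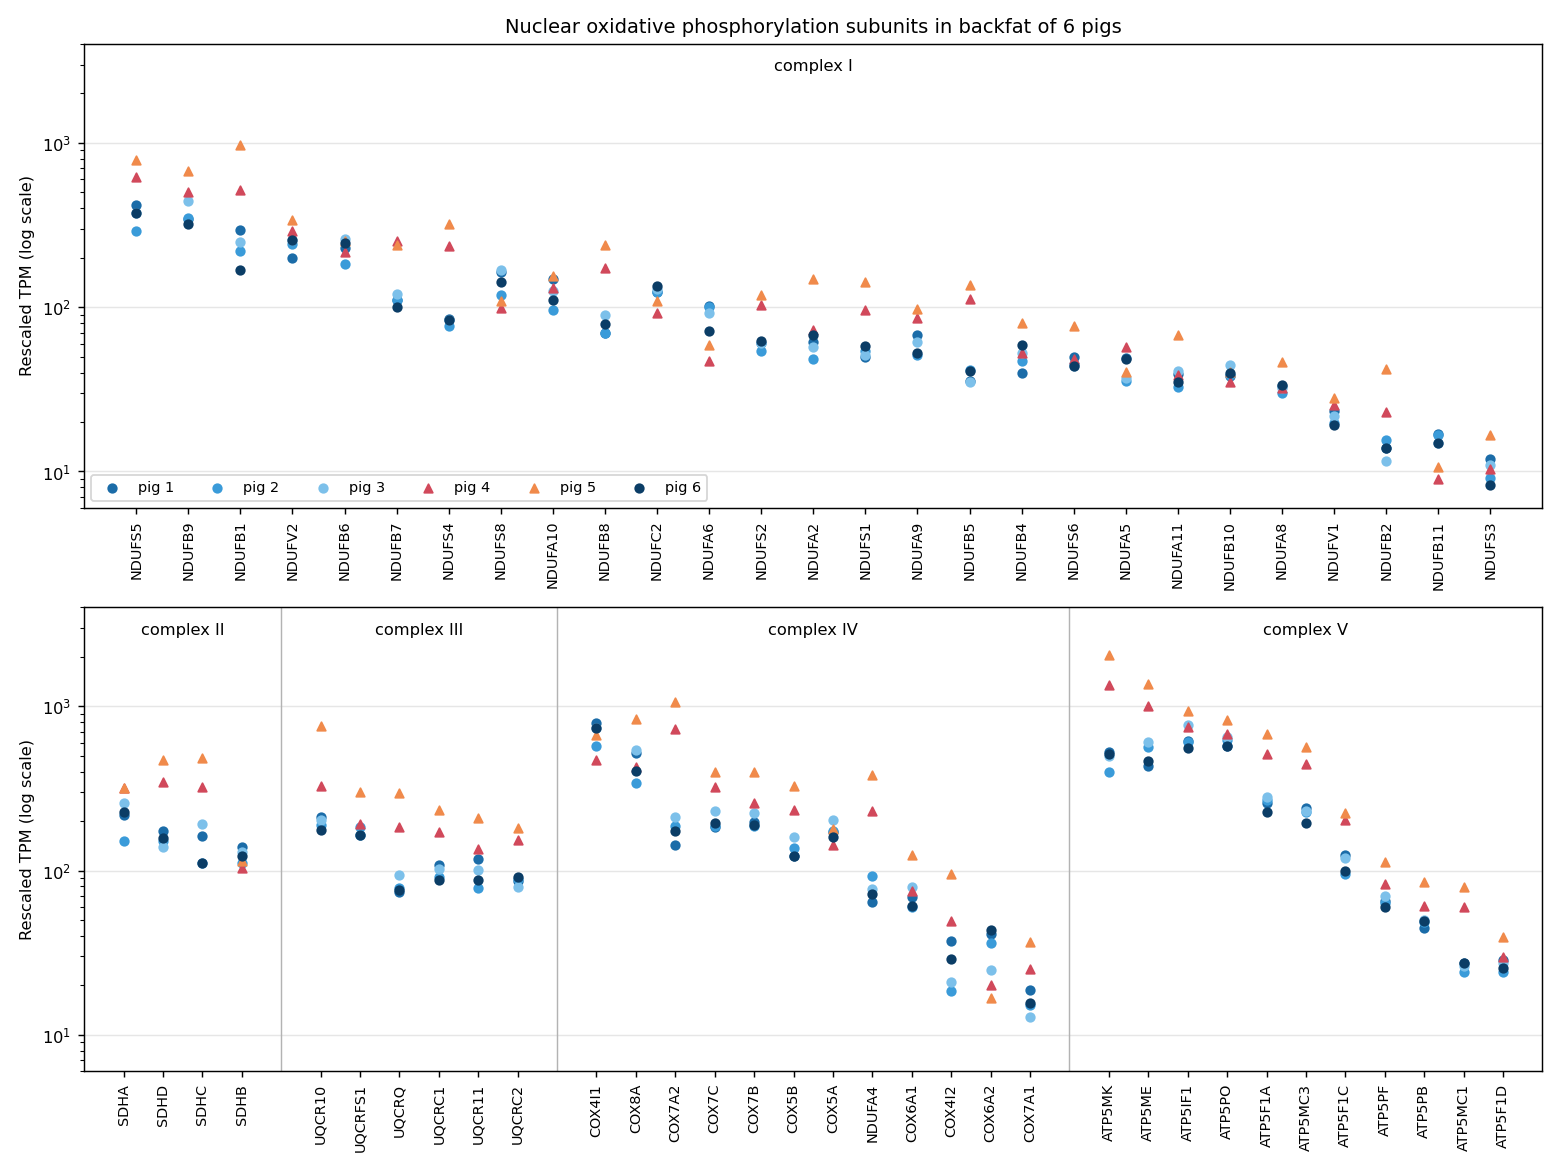
Rescaled TPM (log axis) of the subunit genes in each of 6 pigs, by complex and sorted by mean; circles are replicates 1, 2, 3 and 6 and triangles replicates 4 and 5, and COX6B2, which has zeros, is left out. In complex V the triangles lie above the circles for 10 of 11 genes (10.4% of all named nuclear genes with a mean of at least 1), while in complex I some genes such as NDUFA6 and NDUFB11 show the opposite.

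The level differed by complex. The median over the members of a complex was highest for complex V, at 317 ± 150 rescaled TPM (SD, n = 6), followed by complex II at 219 ± 110, complex IV at 183 ± 81.5, complex III at 139 ± 69.3 and complex I at 73.4 ± 22.3. Without replicates 4 and 5 these medians were 224 ± 18.9, 151 ± 18.2, 136 ± 18.3, 98.6 ± 11.1 and 59.6 ± 3.76 in the same order (SD, n = 4). Without the inhibitor ATP5IF1, counted here with complex V, the complex V median was 231 ± 102 (SD, n = 6), near that of complex II. With it, complex V was highest and complex I lowest in 6 of 6 libraries. The 4 other scalings tried gave the same, but they keep the order of genes within a library and so do not check this. The neighbours II and IV did not keep their order, since complex II was above complex IV in 5 of 6 libraries and below it in replicate 2. Complex IV was above complex III in 6 of 6 libraries. These are medians over different genes of 1 library, so they say how abundant the transcripts of a typical subunit are and nothing of protein stoichiometry.

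**Figure D2:**
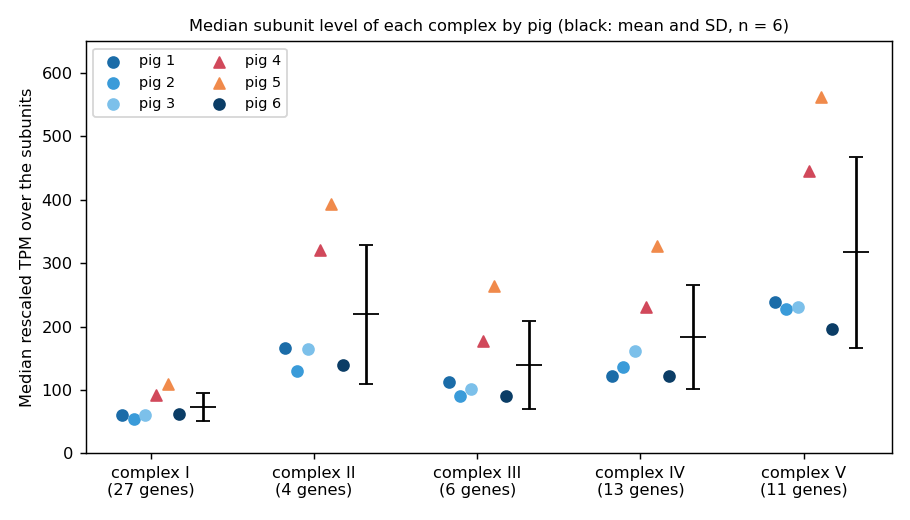
Median rescaled TPM over the subunit genes of each complex in each pig (circles and triangles), with the mean and SD over 6 pigs in black. Complex I is lowest and complex V highest in every pig, and the values of replicates 4 and 5 (triangles) are the highest in each complex.

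Complex I, the NADH dehydrogenase, had members over a 42.6-fold range of means. NDUFS5, an accessory subunit, was highest at 477 ± 187 rescaled TPM (SD, n = 6), with 418, 289, 373, 622, 784 and 373 in replicates 1 to 6. NDUFB9, also accessory, had 440 ± 135. NDUFB1 had 404 ± 305, with 295, 219, 248, 520, 974 and 168 in the 6 replicates. Both libraries that stand apart were above the other 4 for each of these 3 genes, as they were for 10.4% of the 12130 named nuclear genes with a mean of at least 1 rescaled TPM. The lowest member was NDUFS3, a core subunit of the hydrophilic arm, at 11.2 ± 2.94 rescaled TPM, with replicates 4 and 5 not set apart (10.4 and 16.6 against 8.27 to 11.8). The 6 core subunits and the 21 accessory subunits had medians of 72.7 ± 25.9 and 73.9 ± 20.8 rescaled TPM (SD, n = 6).

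Complex II, succinate dehydrogenase, had 4 members within a 2.07-fold range. SDHA, which carries the flavin, had 217, 151, 258, 319, 316 and 227 rescaled TPM in replicates 1 to 6. SDHB, which carries the iron-sulfur clusters, had 138, 111, 129, 104, 114 and 123. The membrane anchors SDHC and SDHD had means of 230 ± 147 and 239 ± 137 (SD, n = 6). The 4 genes differed in how replicates 4 and 5 stood to the others after rescaling. SDHC was at 322 and 486 there against 111 to 192 elsewhere, and SDHD at 348 and 470 against 139 to 173. SDHB overlapped between the libraries after rescaling, though all 4 genes were above in both after median-centring, and it had a coefficient of variation (CV, the SD over the mean) of 0.107 over the 6 pigs.

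Complex III, the cytochrome bc1 complex, had 6 members within a 2.74-fold range, and all 6 were above the other libraries in both replicates 4 and 5 (background 10.4%). UQCR10, a small accessory subunit, was highest at 211, 189, 202, 326, 759 and 177 rescaled TPM in replicates 1 to 6. UQCRFS1, the Rieske iron-sulfur protein, followed at 195 ± 53.5 (SD, n = 6). UQCRQ, another small accessory subunit, had 73.9, 78.8, 94, 184, 295 and 75.9. UQCRC2, a core protein on the matrix side, was lowest at 113 ± 42.8.

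In complex IV, cytochrome c oxidase, the nuclear members build the shell around the mitochondrially encoded core. COX4I1, the general form of subunit 4, was highest at 660 ± 119 rescaled TPM (SD, n = 6), with 787, 571, 735, 471, 665 and 732 in replicates 1 to 6. Its values in replicates 4 and 5 lay below or among those of the other 4. COX8A followed with 513 ± 177 and COX7A2 with 417 ± 385. COX5A had a CV of 0.116, with 172, 174, 202, 142, 178 and 161 rescaled TPM. COX5B, the zinc-binding subunit, had 122, 137, 161, 235, 327 and 123, above the others in both replicates 4 and 5.

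Complex V, the ATP synthase, held 33.0% of the rescaled TPM of all members. Its most abundant gene was ATP5MK, a small membrane subunit involved in dimer formation, at 528, 396, 500, 1347, 2056 and 511 rescaled TPM in replicates 1 to 6. With a mean of 890 ± 669 (SD, n = 6) it ranked at 108 among the named nuclear genes. ATP5ME, another membrane subunit, had 740 ± 372. ATP5IF1, the inhibitor that blocks ATP hydrolysis, had 616, 603, 769, 750, 934 and 561, and replicate 4 lay among the others. ATP5F1D, a subunit of the central stalk, was lowest at 29.1 ± 5.47.

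Paired forms of the same subunit were then compared within each library, where the scaling cancels. Of 10 pairs listed, 5 had both genes above 0 in all 6 libraries. In each of these 5 the gene written first was the higher in 6 of 6 pigs, with p = 0.03125 in an exact two-sided sign-flip permutation test of the mean log2 ratio. This is the smallest p that 6 pigs can give, and the value adjusted over the 5 pairs by Benjamini-Hochberg was also 0.03125. The forms known from most tissues thus had the higher level for subunits 4, 6A and 7A of complex IV in this fat.

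COX7A2 (ENSSSCG00000004480) is the form found in most tissues and COX7A1 (ENSSSCG00000037792) that of heart and muscle. COX7A2 had 143, 185, 212, 723, 1064 and 173 rescaled TPM in replicates 1 to 6. COX7A1 had 18.6, 15.1, 12.9, 25.3, 36.9 and 15.5. COX7A2 was above COX7A1 in every pig, and the pair kept a wide gap. The mean log2 ratio was 3.96 ± 0.767 (SD, n = 6), or 15.6-fold, with ratios of 7.70 to 28.8. Without replicates 4 and 5, which had the 2 largest ratios, it was 11.5-fold.

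COX4I1 (ENSSSCG00000029034) stood above COX4I2 (ENSSSCG00000038384), the form known from lung and induced by low oxygen, by 4.20 ± 0.953 on the log2 scale (SD, n = 6), or 18.4-fold. COX4I2 had 37.3, 18.4, 21, 49.2, 95.7 and 28.9 rescaled TPM in replicates 1 to 6. The ratio was 9.57 and 6.94 in replicates 4 and 5 and 21.1 to 35.0 in the others, the opposite order to that of COX7A2 and COX7A1. Without these libraries it was 27.6-fold. COX4I2 also had the largest CV among members with a mean of at least 10 when replicates 4 and 5 were left out, at 0.323.

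COX6A1 (ENSSSCG00000039265) and the heart and muscle form COX6A2 (ENSSSCG00000036789) were closest. COX6A1 had 69.1, 59.6, 79.5, 75.4, 124 and 61.1 rescaled TPM in replicates 1 to 6. COX6A2 had 41.4, 36.5, 24.9, 20, 16.7 and 43.2. The mean log2 ratio was 1.40 ± 0.925 (SD, n = 6), or 2.65-fold, with a range of 1.41 to 7.41, and 1.87-fold without replicates 4 and 5. COX6A2 held 28.9% ± 11.7 of the summed level of the pair, whereas COX7A1 held 6.61% ± 3.14 and COX4I2 6.05% ± 4.02 of theirs. Muscle markers were at or near 0 in these libraries, with 0.396 to 2.30 rescaled TPM for CKM, 0.292 to 6.36 for ACTA1 and 0 to 2.79 for TNNT3. Their summed level was 0.945 and 0.887 in replicates 4 and 5 and 2.19 to 11.0 in the others, and MYH7, MYH2 and MB had no named ID. The RefSeq model matched to COX6A2 has a longest transcript of 2726 bases against 554 for COX6A1, so what this ID counts beside COX6A2 itself is uncertain.

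NDUFA4 and NDUFA4L2, a relative of NDUFA4 induced by low oxygen and not a member by the rule, had the widest gap over the 6 pigs, but not without replicates 4 and 5, where that of COX4I1 and COX4I2 was wider. NDUFA4 had 63.9, 93.1, 77.1, 231, 383 and 72.2 rescaled TPM in replicates 1 to 6. NDUFA4L2 had 3.30, 3.32, 2.55, 0.454, 0.649 and 2.67. The mean log2 ratio was 6.16 ± 2.29 (SD, n = 6), or 71.5-fold, and 25.8-fold without replicates 4 and 5. As deposited NDUFA4L2 had 0.0152 and 0.0307 TPM in replicates 4 and 5, under the 0.1 TPM taken as detected, so the ratios of these libraries and the mean over 6 pigs rest on an undetected gene. With 0.1 added to the deposited TPM the mean was 37.1-fold. ATP5MC3 and ATP5MC1 code for the same mature c subunit of the membrane rotor with different import signals. ATP5MC3 was 8.04-fold above ATP5MC1, with ratios of 7.08 to 9.40, the narrowest range of the 5 pairs. The third gene for this subunit, ATP5MC2, had no named ID, and the same held for a gene of each other untested pair (COX6B1, COX7B2, COX8C, UQCRH and UQCRHL).

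**Figure D3:**
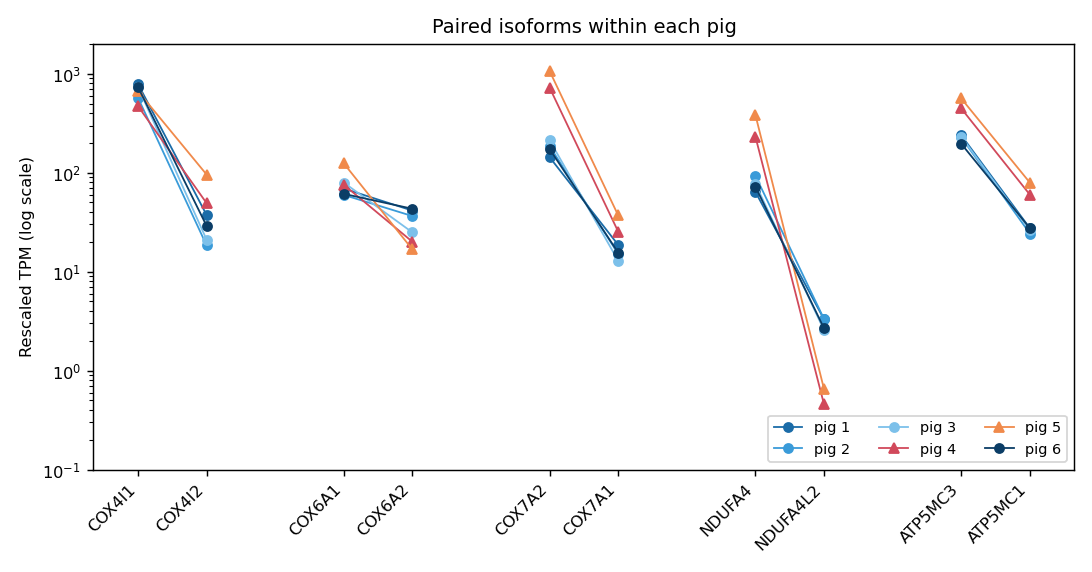
Rescaled TPM (log axis) of both genes of the 5 tested pairs, with a line for each pig; triangles are replicates 4 and 5. The left gene is above the right gene in all 6 pigs for every pair, with the steepest lines for NDUFA4 over NDUFA4L2 in replicates 4 and 5, where NDUFA4L2 was under 0.1 TPM as deposited, and the flattest for COX6A1 over COX6A2.

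The start regions of these genes were read for the motifs of 2 factors known to drive subunit genes, NRF1 and the ETS factor GABP. Each window runs from 250 bases before to 30 bases after the start of the RefSeq gene on Sscrofa11.1, 280 bases in all, and the letters searched on both strands were TGCGCA, the core of the NRF1 motif and its own reverse complement, and CCGGAAG for ETS factors. Neither string holds the other, and a match is a description of the letters and not a measured site. At least 1 of the motifs was in the window of 27 of 61 members (44.3%), against 16.9% of 19527 gene windows. These are the windows of all protein-coding RefSeq genes with a complete sequence. They include genes not transcribed in this fat, so this background differs from the others given here. CCGGAAG was in 21 members (34.4%, against 9.96% of all windows) and TGCGCA in 11 (18.0%, against 8.37%). The median GC content of the windows was 59.6% for members and 58.2% for all. By complex, CCGGAAG was in 7 of 27 windows of complex I, 2 of 4 of II, 2 of 6 of III, 5 of 13 of IV and 5 of 11 of V.

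The windows of the 7A and 4 pairs are shown because the forms differ in level and in these letters, and that of COX5B because it holds both motifs more than once. Capitals mark the motifs on either strand, and each sequence runs 5′ to 3′ along the strand of its gene. COX7A2 lies at chr1:90696496-90696775 on the plus strand, COX7A1 at chr6:45520692-45520971 on the minus strand, COX4I1 at chr6:3137590-3137869 on the minus strand, COX4I2 at chr17:35340249-35340528 on the plus strand and COX5B at chr3:56632078-56632357 on the minus strand.
COX7A2: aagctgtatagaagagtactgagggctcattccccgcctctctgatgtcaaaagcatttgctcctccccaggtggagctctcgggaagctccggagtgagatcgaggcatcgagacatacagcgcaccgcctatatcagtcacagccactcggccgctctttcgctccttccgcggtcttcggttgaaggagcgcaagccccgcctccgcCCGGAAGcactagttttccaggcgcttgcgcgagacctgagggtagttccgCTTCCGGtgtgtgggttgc
COX7A1: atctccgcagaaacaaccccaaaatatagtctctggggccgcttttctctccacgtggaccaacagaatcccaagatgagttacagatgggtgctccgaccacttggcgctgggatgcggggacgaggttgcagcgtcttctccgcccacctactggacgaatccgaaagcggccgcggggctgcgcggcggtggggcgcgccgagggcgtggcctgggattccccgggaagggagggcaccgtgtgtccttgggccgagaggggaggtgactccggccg
COX4I1: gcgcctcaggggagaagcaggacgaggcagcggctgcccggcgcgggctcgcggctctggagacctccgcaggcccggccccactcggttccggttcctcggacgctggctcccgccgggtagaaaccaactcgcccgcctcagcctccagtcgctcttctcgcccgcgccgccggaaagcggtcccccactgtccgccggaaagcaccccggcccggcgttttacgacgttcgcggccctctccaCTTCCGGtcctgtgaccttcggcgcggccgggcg
COX4I2: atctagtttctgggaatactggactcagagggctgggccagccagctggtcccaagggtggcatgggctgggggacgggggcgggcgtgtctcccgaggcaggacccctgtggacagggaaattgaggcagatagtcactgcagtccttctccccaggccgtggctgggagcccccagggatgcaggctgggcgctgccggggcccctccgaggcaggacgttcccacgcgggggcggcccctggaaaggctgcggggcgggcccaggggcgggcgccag
COX5B: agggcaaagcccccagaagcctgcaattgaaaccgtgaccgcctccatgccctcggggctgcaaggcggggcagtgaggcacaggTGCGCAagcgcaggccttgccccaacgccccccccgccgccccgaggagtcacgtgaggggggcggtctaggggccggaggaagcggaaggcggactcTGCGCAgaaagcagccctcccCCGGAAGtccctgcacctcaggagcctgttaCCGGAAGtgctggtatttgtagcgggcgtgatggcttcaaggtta
COX7A2 held CCGGAAG 2 times and COX4I1 held it once. COX7A1 and COX4I2, the lower forms, held neither string in this window. COX6A1 held 1 of each and COX6A2 neither. The COX6A2 window is at the start of the long RefSeq model described above, so it may not lie at the start of COX6A2. ATP5MC3 held CCGGAAG once and ATP5MC1 neither string, while NDUFA4, the higher gene of its pair, also held neither. COX5B held 2 of each. Among the 40 members above the others in both replicates 4 and 5, 15 held CCGGAAG, and 6 of the other 21 did.

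Between the pigs, members varied little once the libraries that stand apart were left out. The background below was not matched for level, and many members were abundant. A low CV is thus not shown to be particular to them. Over replicates 1, 2, 3 and 6 the median CV of the 60 members with a mean of at least 10 rescaled TPM was 0.115, against 0.161 for 8866 named nuclear genes past the same filter, and 49 of 60 members were under that median. Over all 6 libraries the median CV was 0.347 for members and 0.282 for all genes, and 24 of 60 were under it. The smallest CVs over 6 pigs were those of NDUFB10 (0.0786), SDHB (0.107), COX5A (0.116), NDUFB6 (0.123) and NDUFC2 (0.128). NDUFB10, an accessory subunit of complex I, had 38.2, 38.7, 44.6, 35.1, 40.3 and 40 rescaled TPM in replicates 1 to 6. The largest were those of COX7A2 (0.924), NDUFA4 (0.838), NDUFB1 (0.755), ATP5MK (0.752) and UQCR10 (0.728), all with their highest values in replicates 4 and 5. The rank order of the members by level was alike in all libraries, with Spearman's rho across the 61 genes of 0.982 to 0.991 among replicates 1, 2, 3 and 6, of 0.985 between 4 and 5, and of 0.888 to 0.925 across the 2 sets, as a description across genes, which are not independent.

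Replicates 4 and 5 were both above the other 4 libraries for 40 of the 60 members with a mean of at least 1 rescaled TPM (66.7%), against a background of 10.4% of 12130 named nuclear genes. They were both below for 5 members (8.33%), against a background of 50.1%. The count above depends on the scaling, and as deposited it was 0 of 60 members (background 0.0742%), with 55 below (background 98.2%). With the libraries centred on their median gene it was 53 above (background 28.5%) and 0 below (background 27.6%). Quantile normalization gave 49 above (background 27.4%) and 0 below (background 25.8%), and rescaling without ribosomal protein genes 42 above (background 11.7%) and 5 below (background 47.7%). On each of these 5 scales the share below was smaller for members than for all genes. Members above numbered 14 of 27 in complex I, 3 of 4 in II, 6 of 6 in III, 7 of 13 in IV and 10 of 11 in V.

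By the lower of replicates 4 and 5 against the highest of the others, COX7A2 was farthest above, by 1.77 on the log2 scale, and its mean in replicates 4 and 5 was 5.00 times that of the others. NDUFS4, an accessory subunit needed for the assembly of complex I, had 85.1, 76.8, 83.6, 237, 322 and 83.7 rescaled TPM, a 3.40-fold difference. NDUFB5 differed 3.25-fold, ATP5MK 3.52-fold and NDUFA4 4.01-fold. As deposited, COX7A2 had 35.8, 44.7, 55.6, 24.1, 50.4 and 45.7 TPM, so replicate 5 lay among the others and replicate 4 below. All 5 genes were above in both libraries after rescaling, on which they were picked, and so also after median-centring, which raises these libraries further. They were above after quantile normalization too. As deposited none was above, and NDUFS4 and NDUFB5 were below.

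The 5 members below were NDUFB11, COX6A2, NDUFA6, NDUFC2 and NDUFS8. NDUFB11, an X-linked accessory subunit, had 17, 16.8, 15, 8.96, 10.7 and 14.9 rescaled TPM in replicates 1 to 6. NDUFA6, an accessory subunit of the matrix arm, had 101, 99.7, 91.5, 47.3, 58.7 and 71.9. NDUFC2 and NDUFS8, the latter a core iron-sulfur subunit, had lower levels in replicates 4 and 5 by 1.26-fold and 1.43-fold. Since the median gene was itself lower in these libraries, none of the 5 was below after median-centring or quantile normalization.

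Transcript length moved with this difference, and its part in the result was not tested. Members were short, with a median longest RefSeq transcript of 826 bases against 3580.5 for all named nuclear genes with a length. Across genes, Spearman's rho of length with the difference of replicates 4 and 5 from the other libraries in log2(rescaled TPM + 1) was -0.26 over 60 members and -0.29 over 11152 genes, given as a description. The count was also taken within length bins. Under 500 bases, 10 of 11 members were above in both libraries against 46.5% of genes, and from 500 to 1000 bases 15 of 31 against 29.8%. From 1000 to 2000 bases it was 10 of 11 against 21.6%, and from 2000 to 4000 bases 4 of 6 against 9.38%. The longest member, UQCRC2 with 5159 bases, was also above.

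**Figure D4:**
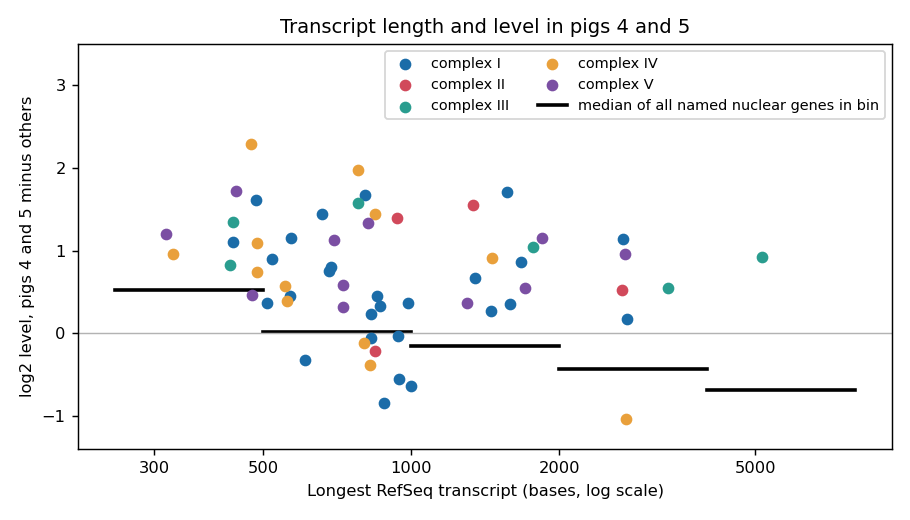
Log2 level in replicates 4 and 5 minus that in the other 4 libraries for each subunit gene, against the length of its longest RefSeq transcript (log axis), coloured by complex; black lines are the median of all named nuclear genes in each length bin, the first from 0 and the last open-ended. The medians of all genes fall from 0.53 in the shortest bin to -0.69 in the longest, and most members lie above the line of their bin.

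The mitochondrial partners of these subunits were low relative to them in replicates 4 and 5. As deposited both sums were lower there, that of the members at 481 and 956 TPM against 2095 to 2689 in the others. The 13 mitochondrially encoded subunits had a summed TPM of 56.2, 101, 64.6, 4.35, 3.12 and 45.5 times that of the 61 nuclear members in replicates 1 to 6. The mean ratio was 45.9 ± 37.6 (SD, n = 6), or 66.9 ± 24.2 (SD, n = 4) without replicates 4 and 5. Both sums come from the same library, so the scaling cancels in this ratio. For complex IV, the core subunit COX1 had 18861, 21545, 21835, 854, 1282 and 14811 TPM as deposited. All 13 genes were below the other 4 libraries in both replicates 4 and 5 as deposited, as were 98.2% of named nuclear genes on that scale.

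**Figure D5:**
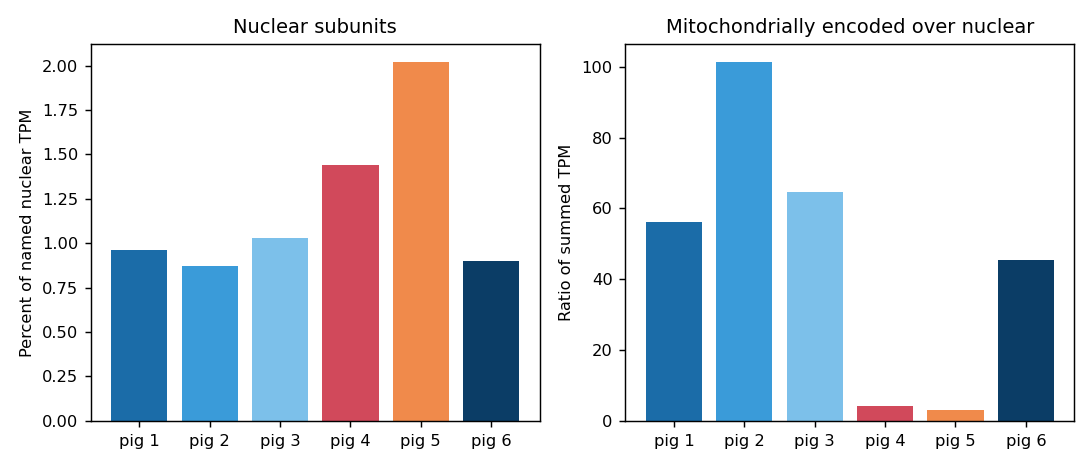
Left, percent of named nuclear TPM held by the 61 nuclear subunit genes in each pig; right, summed TPM of the 13 mitochondrially encoded subunits over that of the nuclear subunits. Replicates 4 and 5 have the highest nuclear share (1.44 and 2.02%) and the lowest ratio (4.35 and 3.12, against 45.5 to 101).

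Other genes of the pathway were taken from lists. Of 8 subunits or carriers outside the rule, 5 had an ID. After rescaling 2 of these were above in both replicates 4 and 5 (background 10.4%), COX7A2L, a factor of supercomplexes, and the electron carrier CYCS. Below in both was 1, NDUFA4L2 (background 50.1%). The highest, the acyl carrier and complex I subunit NDUFAB1, had 284 ± 93.0 rescaled TPM (SD, n = 6), and CYC1, the cytochrome c1 of complex III, 88.6 ± 13.2. Neither was set apart. Of 52 assembly factors, 39 had an ID, with 11 above (background 10.4%) and 10 below (background 50.1%) after rescaling, and 22 above (background 28.5%) and 2 below (background 27.6%) after median-centring. The copper chaperone COX17 was the highest at 601 ± 207, and the median assembly factor had 16.3 to 22.6 rescaled TPM across libraries, under the median of every complex.

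All 14 listed regulators of mitochondrial genes had an ID, with 2 above (background 10.4%) and 8 below (background 50.1%) after rescaling, and 5 above (28.5%) and 5 below (27.6%) after median-centring. GABPA, the DNA-binding part of GABP, had 80.1 ± 12.5 rescaled TPM (SD, n = 6), YY1 68.3 ± 7.14 and TFAM, which packs mitochondrial DNA and starts its transcription, 65.8 ± 16.9. TFAM had 86.8 and 87.3 in replicates 4 and 5 against 51.2 to 60.6 in the others. The other regulator above in both, ESRRA, had 21.6 and 23.5 against 6.88 to 10.9, and it was above after median-centring as well. NRF1 was below in both, at 19.2 and 17.7 against 29.2 to 37.0, and so was GABPB1, the partner of GABPA in GABP, at 15.4 and 19.8 against 36.6 to 59.2. YY1 was below after rescaling, at 63.0 and 57.1 against 69.5 to 75.4, and above after median-centring. The coactivator PPARGC1A, named after its values were seen, was low in every library at 0.259 to 1.04 rescaled TPM. It had 0.289 and 0.259 in replicates 4 and 5 against 0.718 to 1.04 in the others, and was below in both after median-centring as well. The thermogenic markers UCP1 and CIDEA had no named ID, DIO2 had 0.672 to 2.70 rescaled TPM and CPT1B 4.46 to 19.0, the latter at 4.46 and 4.50 in replicates 4 and 5 and 7.06 or more in the others.

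Markers of other cells also differed in these libraries, and their part in the results on replicates 4 and 5 was not tested. In bulk tissue, fewer cells of a type and less RNA per cell cannot be told apart. The summed level of 4 macrophage markers was 323 and 187 rescaled TPM in replicates 4 and 5 against 399 to 515 in the others, and 2 of 4 were below in both (background 50.1%). That of 3 endothelial markers was 556 and 674 against 988 to 1214, with 3 of 3 below after rescaling (background 50.1%) and 1 of 3 after median-centring (background 27.6%). The haemoglobin gene HBB had 955 and 399 against 103 to 502. Of the mammary markers, KRT18 had 14.9 and 6.82 against 1.71 to 3.30, above in both, and EPCAM 0.854 and 0.737 against 1.44 to 2.40, below in both. Several members also overlap another gene on the opposite strand in RefSeq, for example NDUFB1 with CPSF2, NDUFB10 with RPS2, ATP5PF with GABPA and ATP5MK with TAF5. The libraries were stranded, but whether the quantification used the strand is not stated, and the part of such reads in the values was not tested.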

How the data were processed

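Total RNA of 6 pig backfat samples was depleted of ribosomal RNA and sequenced by the authors as stranded paired-end libraries. The deposited values are TPM of genes, from Kallisto 0.43.0 as run by the authors on Sscrofa11.1. The study names a release for its pig annotation, but not for this table. In the deposited table the TPM of each library sum to 1000000 over 25880 IDs. TPM keep no read counts, so depth is unknown and no counting interval is given.

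Symbols were matched by ID, and each library was rescaled over its 14844 named nuclear genes. The members and all lists were chosen with earlier results of these data known. Calls of replicates 4 and 5 used genes with a mean of at least 1 rescaled TPM, and CVs those with a mean of at least 10. Isoform pairs were tested over 64 sign patterns, with no pseudocount. No other test was run, since there was 1 condition. The pair test and the calls were also run on simulated data.

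Named members were the 3 highest and the lowest of each complex, the isoform pairs, the 5 largest and 5 smallest CVs, the 5 farthest above and 5 farthest below in replicates 4 and 5, and the members past an outlier limit. COX5B, SDHC, CPT1B, NRF1, GABPB1 and other genes or members named beyond these were chosen after their values were seen.

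Gene positions, transcript lengths and start windows are from the RefSeq annotation of Sscrofa11.1, in which all 61 members were found by symbol, older symbol or product name. Positions are 1-based. Alternatives were the deposited TPM, median-centring (median of ratios), rescaling without ribosomal protein genes, quantile normalization, other minimums and pseudocounts, other memberships and leaving out libraries. Python 3.11.15, pandas 2.3.3, numpy 2.4.6, scipy 1.17.1 and pysam 0.24.0 were used. The rat table was not used.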

Additional observations from a re-analysis of the deposited data

Results flagged for a closer look

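Of 73 values examined for a single library far from the other 5, 10 members were marked, each for a high value in replicate 5. In complex I these were NDUFA8, at 46.1 rescaled TPM against 29.9 to 33.5 in the others, NDUFA2, at 149 against 48.4 to 72.6, NDUFS6, at 76.3 against 43.7 to 49.4, NDUFA11, at 67.8 against 32.7 to 41.0, and NDUFB2, at 42.0 against 11.6 to 23.0. In complex III they were UQCR10, at 759 against 177 to 326, and the Rieske protein UQCRFS1, at 302 against 164 to 192. In complex IV they were COX7B, at 400.4 against 187 to 259, and COX6A1, at 124 against 59.6 to 79.5. In complex V it was ATP5F1D, at 39.5 against 24.2 to 29.9.

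Chance marks about 1 in 20 groups of this size, and the members of 1 library are not independent. As deposited, none of the 10 was marked, and after median-centring NDUFA2, UQCR10 and NDUFA11 were, 2 checks added after the data were seen.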

How the results depend on the processing

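As deposited, without rescaling, the medians of complexes I to V moved to 11.5, 30.4, 19.8, 26.8 and 44.7 TPM. They stayed within 1 SD of the main value under median-centring, quantile normalization and rescaling without ribosomal protein genes. This SD includes the gap of replicates 4 and 5 to the others, so the limit is wide and says little about stability. For complex V it was 150, against 18.9 without these libraries. The median CV of the members moved to 0.526 as deposited, to 0.554 under median-centring and to 0.115 without replicates 4 and 5. The number of members above in both replicates 4 and 5 was 40 in the main analysis (background 10.4%) and 0 as deposited (0.0742%), 53 after median-centring (28.5%), 49 after quantile normalization (27.4%) and 42 without ribosomal protein genes (11.7%). The number below was 5 (background 50.1%), and became 55 as deposited (98.2%), 0 under median-centring (27.6%), 0 under quantile normalization (25.8%) and 5 without ribosomal protein genes (47.7%). For single members, 59 of 61 mean levels moved by over 1 SD as deposited and 1 of 61 without ribosomal protein genes. The moves as deposited, also those of the medians, largely follow from the units, since rescaling multiplied the libraries by 3.80 to 29.9. Under median-centring and quantile normalization 0 of 61 moved, by the same wide limit. Leaving out replicates 4 and 5 could not move a mean by over 1 SD, since their gap to the others is part of that SD. The mean of COX7A2, for example, went from 417 to 179 rescaled TPM without them. No isoform ratio could change direction under the pseudocounts tried or without any library, since the first gene was the higher in every pig. The size could change, and NDUFA4 over NDUFA4L2 became 41.8-fold with 1 added to the rescaled TPM and 37.1-fold with 0.1 added to the deposited TPM.

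Leaving out each library in turn gave 66.2 to 77.3 for complex I, 185 to 237 for II, 115 to 149 for III, 155 to 196 for IV and 268 to 341 rescaled TPM for V. The members' share ranged from 1.04 to 1.27%, the median CV from 0.243 to 0.369 and the mitochondrially encoded ratio from 34.8 to 54.4. The mean log2 ratio ranged from 3.79 to 4.17 for COX7A2 over COX7A1, 4.01 to 4.48 for COX4I1 over COX4I2, 1.11 to 1.59 for COX6A1 over COX6A2, 5.55 to 6.54 for NDUFA4 over NDUFA4L2 and 2.96 to 3.04 for ATP5MC3 over ATP5MC1. With 5 or 4 pigs the smallest p of the sign-flip test is 0.0625 or 0.125, so these ratios are values with no test. No paired analysis was possible because pig and rat replicate numbers belong to different animals and no groups were tested. The unknown depth limits low values such as those of COX6B2, where a 0 may be a failed estimate.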
